A study of Mus musculus with 2 samples.

Results

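Type 1 conventional dendritic cells of the irradiated mouse intestine were described here as 57 cells, 12 in the KO library and 45 in the WT library, out of 19577 filtered cell barcodes (8681 KO and 10896 WT). They were chosen by transcripts, counted as unique molecular identifiers (UMIs, 1 per captured RNA molecule): at least 2 UMIs of Xcr1 and Clec9a together, at most 3 of the maturation genes Ccr7, Fscn1, Cacnb3 and Il4i1 together, at most 1 of the macrophage genes C1qa, C1qb and C1qc together, and none of the B cell genes Ebf1 and Pax5 or the T cell genes Cd3e and Cd3d. The levels of these genes in the cells therefore describe the choice and are not results.

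The study compared intestinal immune cells of DPF2 KO mice with those of WT mice, both given 10 Gy of X-rays, in 1 droplet library each. After enzymatic digestion live cells were sorted by whether they carried GFP or tdTomato, and the labels do not say which cells these colours mark. The time after irradiation, the number, age and sex of the mice, the deleted part of Dpf2, the cells it was deleted in and any unirradiated animals are not described in these sources. With 1 library per genotype no test between genotypes was possible, cells are not replicates, and every interval covers counting error only, at the 95% level.

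Type 1 conventional dendritic cells arise under the transcription factors Irf8 and Batf3, take up dead cells through the receptor encoded by Clec9a and hand their antigens to CD8 T cells on MHC class I, which is called cross-presentation. Xcr1, the receptor for the chemokine Xcl1, is carried in mice almost only by them. In the gut they stand beside type 2 conventional dendritic cells, which depend on Irf4 and prime helper T cells. Dpf2 encodes a subunit of the BAF chromatin remodelling complex, which moves nucleosomes at enhancers and promoters.

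The promoters of both genes the cells were chosen by are shown here, with those of Tlr12 and Rsad2, a gene lower and a gene higher in KO cells further on. Each line gives the 250 bases before the gene's start, 5′ to 3′ on the gene's own strand, from RefSeq on GRCm38.p6. Capitals mark matches to short cores, searched on both strands. The joint elements, of an AP-1 family factor such as Batf3 with an IRF factor, were searched by a spaced and an adjoining core. The spaced core is TTTC, any 4 bases, TGA, and the adjoining core GAAATGA. Both stop at TGA, where the AP-1 part begins, so the full joint elements were not searched. The interferon-stimulated response element core is GAAA, any 2 bases, GAAA. No match overlapped another.
Xcr1: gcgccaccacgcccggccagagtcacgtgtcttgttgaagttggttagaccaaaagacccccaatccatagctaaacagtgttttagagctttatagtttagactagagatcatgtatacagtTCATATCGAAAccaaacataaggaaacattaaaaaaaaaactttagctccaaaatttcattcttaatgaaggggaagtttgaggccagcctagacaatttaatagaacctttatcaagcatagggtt
Clec9a: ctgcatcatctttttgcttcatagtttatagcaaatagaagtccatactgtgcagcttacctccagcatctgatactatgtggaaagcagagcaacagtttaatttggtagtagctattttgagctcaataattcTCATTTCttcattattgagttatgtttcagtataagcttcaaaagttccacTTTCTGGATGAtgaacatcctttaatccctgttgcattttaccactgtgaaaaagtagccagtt
Tlr12: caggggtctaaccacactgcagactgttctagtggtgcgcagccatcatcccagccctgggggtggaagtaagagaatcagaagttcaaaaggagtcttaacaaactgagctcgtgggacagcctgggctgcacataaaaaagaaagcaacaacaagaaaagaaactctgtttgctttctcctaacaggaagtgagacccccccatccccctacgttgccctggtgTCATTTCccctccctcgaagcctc
Rsad2: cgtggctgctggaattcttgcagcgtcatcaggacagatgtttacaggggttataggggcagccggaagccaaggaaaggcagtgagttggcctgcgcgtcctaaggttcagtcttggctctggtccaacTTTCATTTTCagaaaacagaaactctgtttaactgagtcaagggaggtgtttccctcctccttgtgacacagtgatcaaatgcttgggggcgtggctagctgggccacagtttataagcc
The windows lie at chr9:123862030-123862279 for Xcr1 (minus strand), chr6:129408612-129408861 for Clec9a (plus strand), chr4:128618620-128618869 for Tlr12 (minus strand) and chr12:26456453-26456702 for Rsad2 (minus strand). Xcr1 held the spaced core, 127 to 117 bases before its start. Clec9a held both joint cores, the adjoining one at 115 to 109 and the spaced one at 64 to 54. Tlr12 held the adjoining core at 24 to 18 bases and Rsad2 the interferon element core at 120 to 111 bases before the start. Of 32851 mouse windows, 3.82% held the spaced core, 4.64% the adjoining core and 2.98% the interferon core. Of 11 genes looked up with a window, 5 held any of them. The genes shown were picked after the matches were seen, and a match is a description of letters, not a site.

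The chosen cells were uneven, and only some carried the full set of markers given for them. Among the 12 KO cells, 6 held a UMI of each of the other given markers, Irf8, Cadm1 (a cell adhesion molecule) and Wdfy4 (needed in mice for cross-presentation of cell-bound antigen). Among the 45 WT cells 28 did. Xcr1 and Clec9a were found together in 5 KO and 24 WT cells, Xcr1 alone in 1 and 5, and Clec9a alone in 6 and 16. At the edge of the rule, 6 KO and 12 WT cells had exactly 2 UMIs of Xcr1 and Clec9a. A further 35 KO and 74 WT cells missed it with 1 UMI. Levels are given as UMIs of the gene per 1000000 UMIs, both summed over the cells (CPM). The cells just inside held Cadm1 at 301 CPM in KO and 73.9 in WT, and the cells just outside 643 in KO and 122 in WT, so Cadm1 was higher outside the edge than inside it in both libraries. Irf8 went the other way in both, with 689 inside and 329 outside in KO, and 259 inside and 171 outside in WT. Wdfy4 was lower inside in KO (43.0 inside, 284 outside) and higher inside in WT (379 and 218), and so was Naaa (21.5 and 362 in KO, 166.2 and 148 in WT). The KO cells just inside include all 4 KO cells with Siglech, a gene of plasmacytoid dendritic cells treated below. Siglech stood there at 710 CPM. Those 4 cells held every UMI of Irf8, Cadm1, Wdfy4 and Naaa found just inside in KO, so the KO values there describe them alone.

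A small group of the chosen cells had the transcripts of plasmacytoid dendritic cells. Siglech, a surface lectin of those cells, was found in 4 of 12 KO and 5 of 45 WT cells. The 4 KO cells held 12 to 35 UMIs of Tcf4, the factor that sets up plasmacytoid dendritic cells, and 0 to 3 of the MHC class II gene H2-Ab1. The 5 WT cells held 8 to 53 UMIs of Tcf4 and 0 to 4 of H2-Ab1. None of these 9 cells had an Xcr1 UMI, and they were chosen through Clec9a alone. Marker genes of plasmacytoid dendritic cells, 12 in all and all 12 detected in each library, summed to 2877 CPM in the KO cells and 1086 in the WT cells. Without the cells holding Siglech those sums were 447 in KO and 500 in WT, with 6 and 7 of 12 markers detected and Klk1, Cox6a2 and Spib among those at 0 in both libraries. Cells without Siglech and with all 3 other given markers numbered 5 of 12 in KO and 27 of 45 in WT, so the label held in full for a minority of the KO cells. The other 3 KO cells without Siglech held none of the 3 markers, and 2 of them were shallow, with 2086 and 2040 UMIs.

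**Figure D1:**
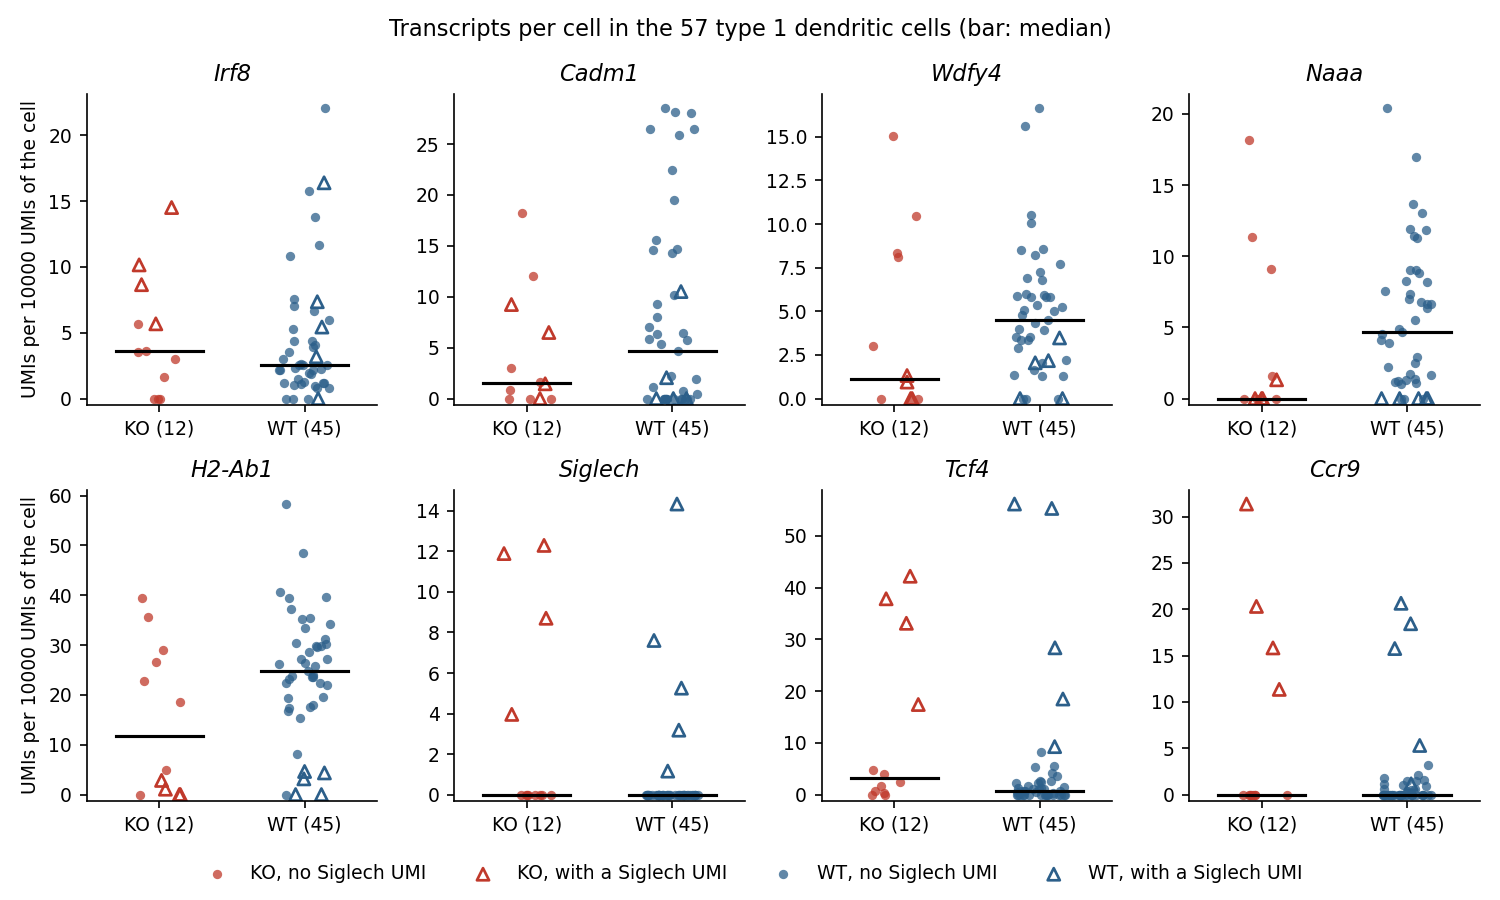
Each point is 1 of the 57 chosen cells (12 KO, 45 WT), the vertical axis its UMIs of the gene per 10000 UMIs of the cell, and the bar the median. Open triangles are cells with a Siglech UMI, which sit high for Tcf4 and at the bottom for H2-Ab1 in both libraries.

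Per cell, Irf8 ran from 0 to 14.5 UMIs per 10000 in KO cells with a median of 3.59, and from 0 to 22.1 in WT cells with a median of 2.53. Cadm1 ran from 0 to 18.2 with a median of 1.54 in KO cells, and from 0 to 28.5 with a median of 4.65 in WT cells. Wdfy4 ran from 0 to 15.1 (median 1.13) in KO cells and from 0 to 16.7 (median 4.53) in WT cells. With all chosen cells counted, the libraries overlapped over much of the range for each gene, and cells at 0 stood in both. Without the cells holding Siglech, the Wdfy4 medians were 5.57 in KO and 5.06 in WT. The Irf8 medians were then 2.32 in KO and 2.43 in WT, so the order of the libraries turned for both genes. The highest Irf8 value was then 5.69 in KO and 22.1 in WT. The Cadm1 medians kept their order, at 1.22 in KO and 5.55 in WT. Naaa, a lysosomal enzyme that breaks down ethanolamides and marks type 1 cells in mice, was found in 5 of 12 KO cells and 37 of 45 WT cells.

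Depth differed little at the median and much in total. The KO cells held 2040 to 25230 UMIs, with a median of 10355.5 and 128272 in sum, of which 1 cell gave 19.7%. The WT cells held 2404 to 37840 UMIs, with a median of 11381 and 599358 in sum. Free RNA in the droplets gives UMIs in cells that do not express a gene, so shares are set beside those of plasma cells. Plasma cells may express a gene themselves, so their shares are a comparison and not a measure of free RNA. Irf8 was found in 9 of 12 KO and 41 of 45 WT cells, against 45.9% of 662 KO and 33.7% of 1447 WT plasma cells. With every cell thinned to 1000 UMIs it was found in 5 KO and 12 WT cells, against 8.91% of KO and 4.56% of WT plasma cells. Those plasma cells had median depths of 8454.5 UMIs in KO and 9330 in WT. Cadm1 was found after thinning in 2 KO and 13 WT cells, against 1.06% of KO and 0.968% of WT plasma cells. A doublet caller marked none of the 57 cells. The libraries shared 24 barcodes over all cells and 0 among these.

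The rule counted fewer type 1 cells in the KO library, but this hung on its lymphocyte limits. They made up 0.138% of KO barcodes (exact interval 0.0715 to 0.241%) and 0.413% of WT barcodes (0.301 to 0.552%), a KO over WT ratio of 0.335 (0.129 to 0.801). Before the other limits, 96 KO cells (1.11%) and 125 WT cells (1.15%) had at least 2 UMIs of Xcr1 and Clec9a, a ratio of 0.964 (0.657 to 1.41). A UMI of Ebf1 or Pax5 removed 78 of these KO cells (81.3%) and 43 of these WT cells (34.4%). A UMI of Cd3e or Cd3d removed 17 KO cells (17.7%) and 44 WT cells (35.2%). The maturation limit took 11 KO and 17 WT cells, and the C1q limit 6 in each library.

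Ebf1, the factor that sets up B cell identity, was found far outside B cells in the KO library. It had a UMI in 40.8% of KO and 2.78% of WT neutrophil barcodes, in 55.0% of KO and 26.9% of WT macrophage barcodes, and in 43.7% of KO and 21.7% of WT T cell barcodes. Over all filtered barcodes its level was 1713 CPM in KO and 642 in WT. The part of free RNA in these counts was not tested.

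The cells removed by the lymphocyte limits carried the type 1 genes. Lifting both limits and keeping all others added 68 KO and 58 WT cells. Irf8 was found in 94.1% of the added KO and 94.8% of the added WT cells, Wdfy4 in 98.5% of KO and 89.7% of WT, and Cadm1 in 86.8% of KO and 77.6% of WT. All 3 were found in 57 of 68 KO and 43 of 58 WT cells. Of B cell surface genes, Ms4a1 was found in 13.2% of the added KO and 10.3% of the added WT cells, and Cd79a in 19.1% of KO and 36.2% of WT. Ebf1 and Pax5 together passed 5 UMIs in 8 KO and 4 WT cells.

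With both limits lifted, and hereafter called the wider set, there were 80 KO and 103 WT cells, 0.922% and 0.945% of barcodes, at a ratio of 0.975 (0.639 to 1.48). The doublet caller marked 2 of these KO cells and 7 of these WT cells, which were kept. Without the cells holding Siglech there were 73 KO cells (0.841%) and 93 WT cells (0.854%), at a ratio of 0.985 (0.632 to 1.53). That interval covers both fewer and more type 1 cells in KO, so no difference in share was detectable at this depth. This set was defined after the data had been seen. Without the cells holding Siglech it holds 1411162 KO and 1501561 WT UMIs, and in that form it is the wider set of all gene values that follow.

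Type 2 cells, chosen by at least 2 UMIs of Cd209a, Clec10a and Clec4a4, no Xcr1 or Clec9a UMI, no Siglech UMI, at most 1 UMI of Ly6c2 and Chil3, and otherwise the same limits, behaved otherwise when the limits were lifted. As defined there were 23 in KO (0.265%) and 87 in WT (0.799%), a ratio of 0.332 (0.171 to 0.621). With the limits lifted there were 58 in KO (0.668%) and 162 in WT (1.49%), a ratio of 0.449 (0.293 to 0.681). Type 1 cells made up 34.3% of both types in KO and 34.1% in WT as defined. In the wider sets without Siglech they made up 55.7% (46.8 to 64.4%) in KO and 36.5% (30.6 to 42.7%) in WT. The sort gates can set these shares, and genotype and library cannot be told apart. Genes of the type 2 rule also differed between the libraries in type 2 cells with the limits lifted. Cd209a stood there at 54.35 CPM in KO and 256.6 in WT. Clec10a went the other way, at 220.7 CPM in KO and 121.3 in WT. The part of these levels in how many cells met the type 2 rule was not tested.

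**Figure D2:**
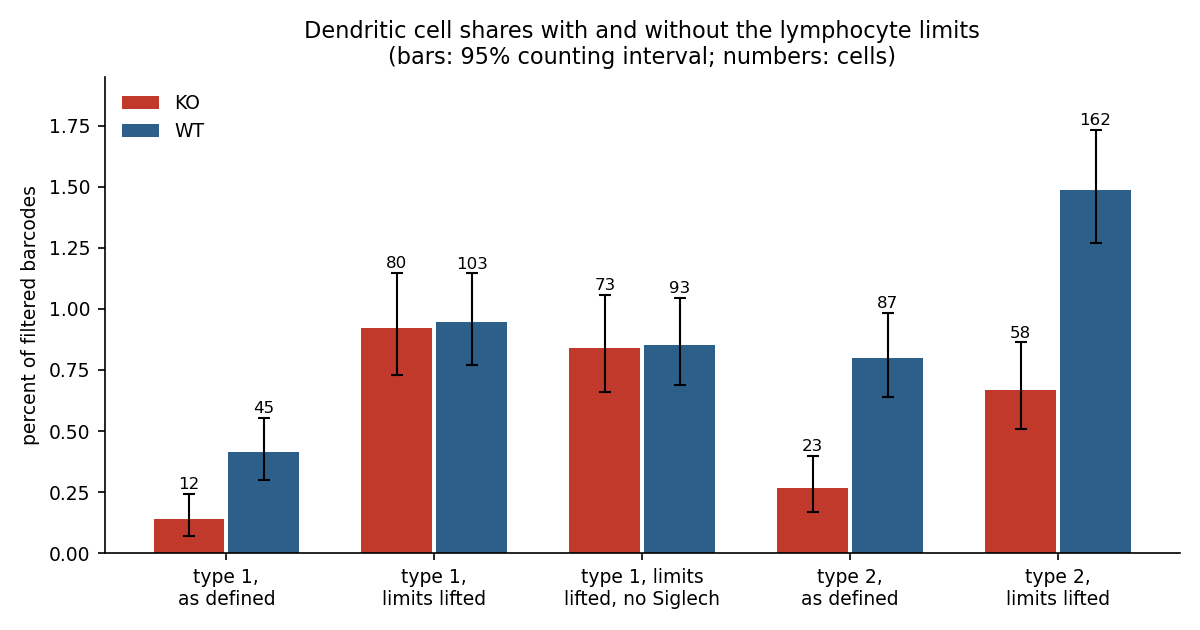
The vertical axis gives each cell set as a percent of filtered barcodes in the KO library (left bar) and the WT library (right bar), with 95% exact counting intervals and cell numbers. Type 1 cells number 12 in KO and 45 in WT as defined, and 80 in KO and 103 in WT with the lymphocyte limits lifted, while type 2 cells number 58 in KO and 162 in WT with the limits lifted.

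Against type 2 cells of the same library, type 1 cells held more of their identity genes in both genotypes. Cadm1 had 2273 UMIs in 73 wider-set type 1 cells and 26 in 58 type 2 cells of the KO library, a 37.6-fold higher level (25.6 to 57.7). In the WT library it had 1290 in 93 type 1 cells and 49 in 162 type 2 cells, a 27.8-fold higher level (20.9 to 37.7). Irf8 was 10.8-fold higher in KO (7.03 to 17.3) and 6.52-fold higher in WT (5.38 to 7.96). Tlr3, the sensor of double-stranded RNA, had 79 UMIs in KO type 1 and 0 in KO type 2 cells, and 111 in WT type 1 and 0 in WT type 2 cells. That makes it at least 11.3-fold higher in KO and at least 39.0-fold higher in WT, against a floor of 3 counts over the type 2 group.

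These are descriptions, since both cell sets were chosen on measured transcripts. Set against type 2 cells in both libraries, 133 of 4542 genes with enough UMIs (2.93%) were higher by 2-fold or more in the 57 type 1 cells, and 188 (4.14%) were lower. In the wider set without Siglech 198 of 7673 (2.58%) were higher and 294 (3.83%) lower. Enough means 50 UMIs or more over the groups, and detection in 5% or more of the cells of 1 group. The fold is of levels in CPM with 10 added to each, on the log2 scale, so it understates the change of low genes. All counts of genes past 2-fold use that scale, whereas ratios printed with an interval have nothing added.

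By the lower of the 2 libraries' ratios, the leading genes of the 57 cells were Ccser1, Cadm1, Ppt1 (a lysosomal thioesterase), Tbc1d8, Cxcl9 (a chemokine for T cells), Plpp1, Adam19, Asap2, P2ry14 and Wdfy4. In the wider set they were Cadm1, Ccser1, P3h2, Ppt1, Lrrc1, Plpp1, Tlr3, Naaa, Adam19 and Lima1. Ppt1 was higher by 2.93 on the log2 scale in KO (419 CPM in type 1 and 46.1 in type 2 cells) and by 3.21 in WT (403 and 34.8). Naaa was higher by 2.6 in KO and 2.64 in WT. Ccser1 was higher by 4.24 in KO and 4.28 in WT, so the 2 libraries gave nearly the same fold for these 3 genes.

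Among the genes lowest in type 1 cells, Fap, a membrane protease, had 13.5 CPM in KO type 1 and 768 in KO type 2 cells, and 22.6 in WT type 1 and 269 in WT type 2 cells. Zeb2, a factor that holds back the type 1 fate in mice, was at −3.77 on the log2 scale in KO and −2.64 in WT. Clec7a, the receptor for fungal glucans, was at −2.77 in KO and −2.70 in WT, and the chemokine receptor Ccr1 at −3.04 in KO and −3.08 in WT. St18, Plcl1, Clec4n, Ptgs2 (the inducible prostaglandin synthase), Arl5c and Gda completed that ranking. For the 57 cells as defined it held Fap, St18, Tmem267, Mmp12, Ccr1, Ifit1, Clec4n, Ifih1, Rin2 and Gda. Genes of the rules and of other cell types' marker lists were left out of the rankings, 31 of them past 2-fold for the 57 cells and 47 in the wider set.

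**Figure D3:**
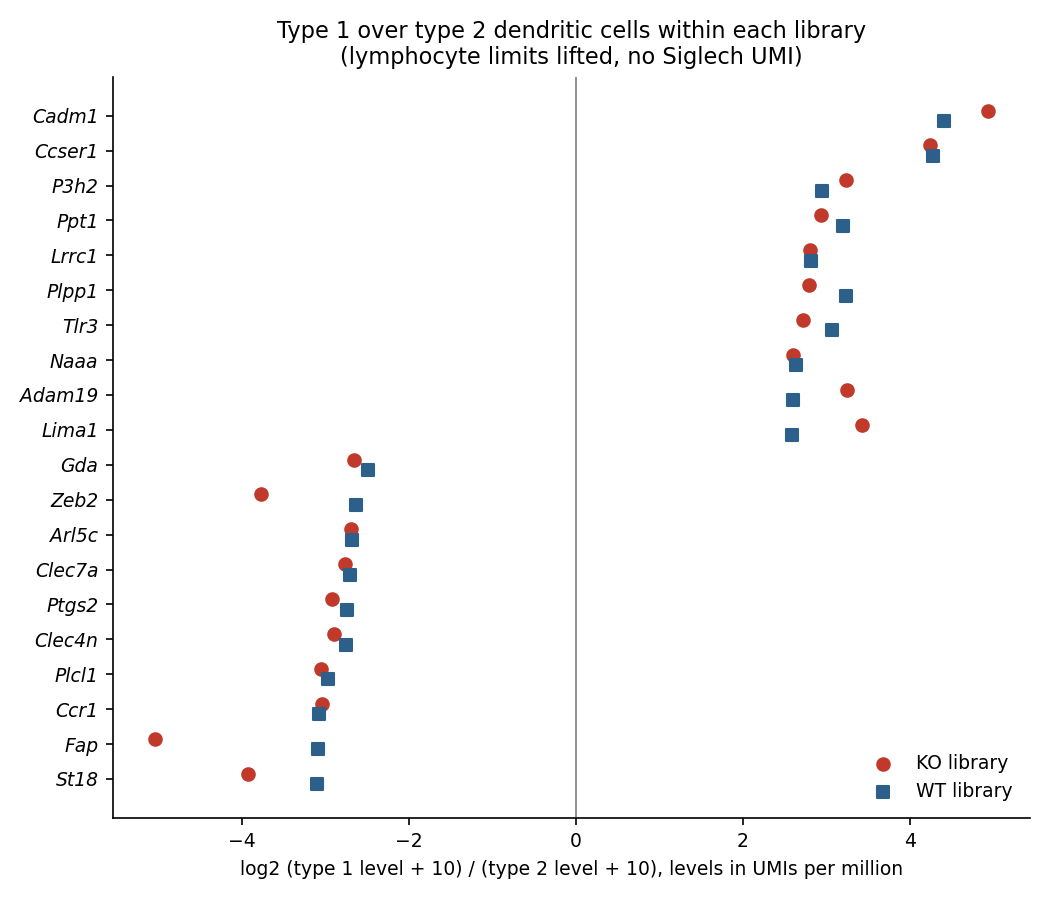
The horizontal axis gives the log2 ratio of type 1 over type 2 cells in each library (circles KO, squares WT) for the 10 highest and 10 lowest genes of the wider set without Siglech, with 10 CPM added to each level. Each gene lies on the same side of 0 in both libraries, as its ranking requires, and Cadm1 stands farthest right at 4.94 in KO and 4.41 in WT.

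Some gene lists separated the types and others did not. In the wider set, cross-presentation genes were higher in type 1 cells in both libraries for 12 of 29 and lower for 12. Their medians were 0.10 in KO and −0.075 in WT. Type 1 transcription factors were higher for 7 of 15 and lower for 4, with medians of 0.30 in KO and −0.002 in WT. Of 21 eligible genes of type 1 identity, 19 were higher in type 1 than in type 2 cells in both libraries of the wider set, 15 of them at least 2-fold, where 2.58% of all genes were, against 12 of 12 type 2 markers lower. S and G2/M genes of dividing cells were higher in type 1 cells in both libraries for 17 of 22. Their list medians were 0.83 in KO and 1.19 in WT, where the median of all genes was 0.09 in KO and 0.08 in WT. The type 1 cells were deeper, with medians of 18643 UMIs in KO and 15661 in WT. Type 2 cells with the limits lifted had 9425.5 in KO and 8822.5 in WT, and the part of depth was not tested. Type I interferon response genes were lower in type 1 cells for 20 of 25, 11 of them at least 2-fold, where 3.83% of all genes were, and cytokine and chemokine genes for 13 of 19. Counted in each library alone, 3346 of all 7673 genes were lower in type 1 cells in KO and 3381 in WT. The list counts are of genes on the same side in both libraries, so these are unlike measures. MHC class II genes were lower in type 1 cells for 9 of 14 and higher for 3, and H2-Ab1 had 2607 CPM in KO type 1 and 2459 in KO type 2 cells, and 2778 in WT type 1 and 2863 in WT type 2 cells.

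Between genotypes, Dpf2 itself was lower in the KO library. The 12 KO cells held 2 UMIs of Dpf2 (15.6 CPM) and the 45 WT cells 24 (40.0 CPM). In the wider set without Siglech, 20 UMIs in 14 of 73 KO cells stood against 53 UMIs in 37 of 93 WT cells, at 14.2 CPM in KO and 35.3 CPM in WT, a ratio of 0.402 (0.227 to 0.683). Median depths were 18643 UMIs in KO and 15661 in WT, against the lower ones of plasma cells above, so cells were thinned to 5000 UMIs to compare shares, which left out 2 KO and 4 WT cells. Then 3 of 71 KO cells (4.23%) and 16 of 89 WT cells (18.0%) had a Dpf2 UMI, and 3.49% of KO and 8.64% of WT plasma cells. Dpf2 lies at chr19:5896516-5913010 on the minus strand of GRCm38. Where the deletion lies is not given, so these reads need not fall in the deleted part.

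Over all genes the 57 cells gave few UMIs for comparison, and which cells were counted decided much of it. The 12 KO cells had 150 of 2719 eligible genes (5.52%) at 2-fold or more above the 45 WT cells, and 202 (7.43%) at 2-fold or more below them. Without the cells holding Siglech the counts were 120 (4.92%) and 252 (10.3%) of 2440. In the wider set without Siglech, with 6165 eligible genes, they were 41 (0.665%) and 80 (1.3%). Also without the called doublets they were 48 and 54 of 5886, so the lean towards lower genes was smaller there. The median log2 ratio of all genes was −0.06 in the 57 cells and −0.01 in the wider set.

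Of the 10 genes ranked highest in the 12 KO cells, 4 lay below 2-fold or on the other side of 0 without the cells holding Siglech (Lair1, Prkca, Mctp2 and Rell1), and 4 had most of their KO UMIs in 1 cell (Oasl1, Rnf213, Trim30a and Tmem267). Lair1, an inhibitory collagen receptor, had 49 UMIs in 5 of 12 KO cells and 24 in 8 of 45 WT cells, a log2 ratio of 2.97 that was 0.42 without the cells holding Siglech. Prkca, a protein kinase C, stood at 2.84 with those cells and 0.20 without them, Mctp2 at 2.68 and −0.34, and Rell1 at 2.55 and −1.41. Oasl1, an interferon-induced gene, had 67 UMIs in KO, 47 of them in 1 cell, and 53 in WT, at 2.44 with the cells holding Siglech and 2.77 without them. The ubiquitin ligase gene Rnf213 had 33 of its 39 KO UMIs in 1 cell, and Trim30a, interferon-induced, 27 of 42. Tmem267, Abcc1 (a transporter) and Lrp8 completed the ranking, each in 7 or 8 KO cells. Of these 10 genes only Oasl1 was at least 2-fold higher in KO in the wider set, at 1.06, while Prkca at −1.07 and Mctp2 at −1.40 were at least 2-fold lower there. Tmem267, at −0.26 in the wider set, had 98 of its 142 WT UMIs in 1 cell and stood at 0.95 without the leading cells.

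The 10 genes ranked lowest in the 12 KO cells were nearer 0 in the wider set. Qpct, which forms pyroglutamate at protein ends, had 0 UMIs in 12 KO cells and 69 in 25 of 45 WT cells, at least 4.92-fold lower against a floor of 3 counts over the KO cells. Lifting the limits gave it 112 in KO and 204 in WT, a ratio of 0.584 (0.460 to 0.739). Stat4, which carries interleukin 12 signals, had 0 UMIs in KO and 56 in WT, at least 4.0-fold lower, and 73 in KO and 169 in WT in the wider set, a ratio of 0.460 (0.344 to 0.608). Nup107, of the nuclear pore, had 1 UMI in KO and 64 in WT (ratio 0.0730, 0.00182 to 0.422), and 60 and 190 in the wider set, a ratio of 0.336 (0.247 to 0.451). Pclaf, a clamp-binding protein of replicating cells, had 1 UMI in KO and 106 in WT (ratio 0.0441, 0.00111 to 0.251), against 169 and 235 in the wider set (ratio 0.765, 0.624 to 0.937). Pola1, Cacybp, Kcnq1ot1 (an antisense RNA, for which strand counting is not stated), Fkbp2, Dusp10 and Tmpo had 1 to 4 UMIs in KO and 49 to 124 in WT. With 10 CPM added, Nup107 was at least 2-fold lower in the wider set, at −1.38 on the log2 scale, and Stat4 was just short of it at −0.99.

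The genes ranked highest in KO in the wider set were Mmp12, Enah, Rsad2, Cbr3, Fgfr1, Mreg, Slc30a1, Adam23, Ank and Rasa4. This ranking was made after the data had been seen. Fgfr1, a fibroblast growth factor receptor, had 67 UMIs in 31 of 73 KO cells and 17 in 11 of 93 WT cells, a ratio of 4.19 (2.44 to 7.62), and at most 7 in any KO cell. Thinned to 5000 UMIs it was found in 23.9% of KO and 2.25% of WT cells, against 0.551% of KO and 0.994% of WT plasma cells. Cbr3, a carbonyl reductase, had 62 UMIs in 28 KO cells and 12 in 9 WT cells (ratio 5.50, 2.93 to 11.2). Slc30a1, a zinc exporter, had 115 in 45 and 40 in 28 cells (3.06, 2.12 to 4.5), and Rasa4, which switches off Ras, 105 in 50 and 39 in 29 cells (2.87, 1.97 to 4.25). These 4 genes were spread over many cells. Without the leading cell of each library the log2 ratio was 1.54 for Fgfr1, 1.55 for Cbr3, 1.34 for Slc30a1 and 1.26 for Rasa4. In type 2 cells with the limits lifted it was 0.39 for Fgfr1, −0.26 for Cbr3, 1.48 for Slc30a1 and 1.28 for Rasa4.

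Mmp12, an elastase of macrophages, had 72 UMIs in KO and 11 in WT, but 45 of the 72 lay in 1 cell, and without the leading cells its log2 ratio was 0.93 and not 1.82. Rsad2, the antiviral enzyme viperin, whose promoter above held the interferon element, had 108 UMIs in 32 KO cells and 23 in 18 WT cells, 53 of the 108 in 1 cell. Its ratio was 5.0 (3.16 to 8.22), and 2.90 without the leading cells. After thinning Rsad2 was found in 23.9% of KO and 8.99% of WT cells, against 20.4% of KO and 13.9% of WT plasma cells. Its share lay below that of plasma cells in WT and little above it in KO. No difference in detection is read from these shares, and the part of free RNA was not tested. Type 2 cells held Rsad2 at 372 CPM in KO and 75.2 in WT. Ank (137 UMIs in KO, 53 in WT), Enah (94 and 18), Adam23 (66 and 21) and Mreg (47 and 11) had 7 to 44 UMIs in their leading KO cell. Thinned, Mreg was found in 12.7% of KO and 4.49% of WT cells, below the 14.7% of KO and 9.02% of WT plasma cells. No difference in detection is read from its shares, and the part of free RNA was not tested.

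The genes ranked lowest in KO in the wider set were Il12b, Tlr12, Adgrl3, Igfbp7, Raet1e, Tox, Il23r, Iigp1, Il18r1 and Zfhx3, and only some of them were low in many cells. Tlr12, which senses profilin of parasites in mice, had 4 UMIs in 3 of 73 KO cells and 71 in 44 of 93 WT cells, at most 2 and 5 in 1 cell, a ratio of 0.0600 (0.0159 to 0.160). Among the 57 cells it had 0 UMIs in 12 KO cells and 31 in 17 of 45 WT cells. Thinned to 5000 UMIs it was found in 1 of 71 KO and 22 of 89 WT cells, against 0.184% of KO and 0.535% of WT plasma cells. Zfhx3, a large homeobox factor, had 22 UMIs in 19 KO cells and 118 in 44 WT cells (ratio 0.198, 0.120 to 0.315). In type 2 cells with the limits lifted it was also lower in KO, at −1.57 on the log2 scale. Il18r1, a chain of the interleukin 18 receptor, had 9 in 8 and 74 in 32 cells (0.129, 0.0569 to 0.259). Its thinned share, 2.82% of KO and 12.4% of WT cells against 5.32% of KO and 10.9% of WT plasma cells, lay below that of plasma cells in KO and little above it in WT, so no difference in detection is read from it. Tlr12 lies at chr4:128615443-128618619 on the minus strand and Zfhx3 at chr8:107942644-108961630 on the plus strand of GRCm38.

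Il12b, the shared chain of interleukins 12 and 23, had 7 UMIs in 5 KO cells and 144 in 11 WT cells, 85 of them in 1 cell. Its log2 ratio was −2.82, and −1.88 without the leading cells. Raet1e, a stress ligand of the NKG2D receptor, had 14 UMIs in KO and 105 in WT. Thinned, it was found in 4.23% of KO and 18.0% of WT cells, against 3.85% of KO and 13.5% of WT plasma cells. Its shares thus lay little above those of plasma cells. Adgrl3, Igfbp7, Tox, Il23r and Iigp1 had 39 to 88 of their 50 to 122 WT UMIs in 1 cell. Without the leading cells those 5 genes lay between −0.61 and −0.93, so a single WT cell carried most of each difference in type 1 cells. In type 2 cells with the limits lifted, Tox (−1.985), Adgrl3 (−1.43) and Igfbp7 (−1.40) were also lower in KO. Il23r was at −0.11 and Iigp1 at −0.05 there.

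**Figure D4:**
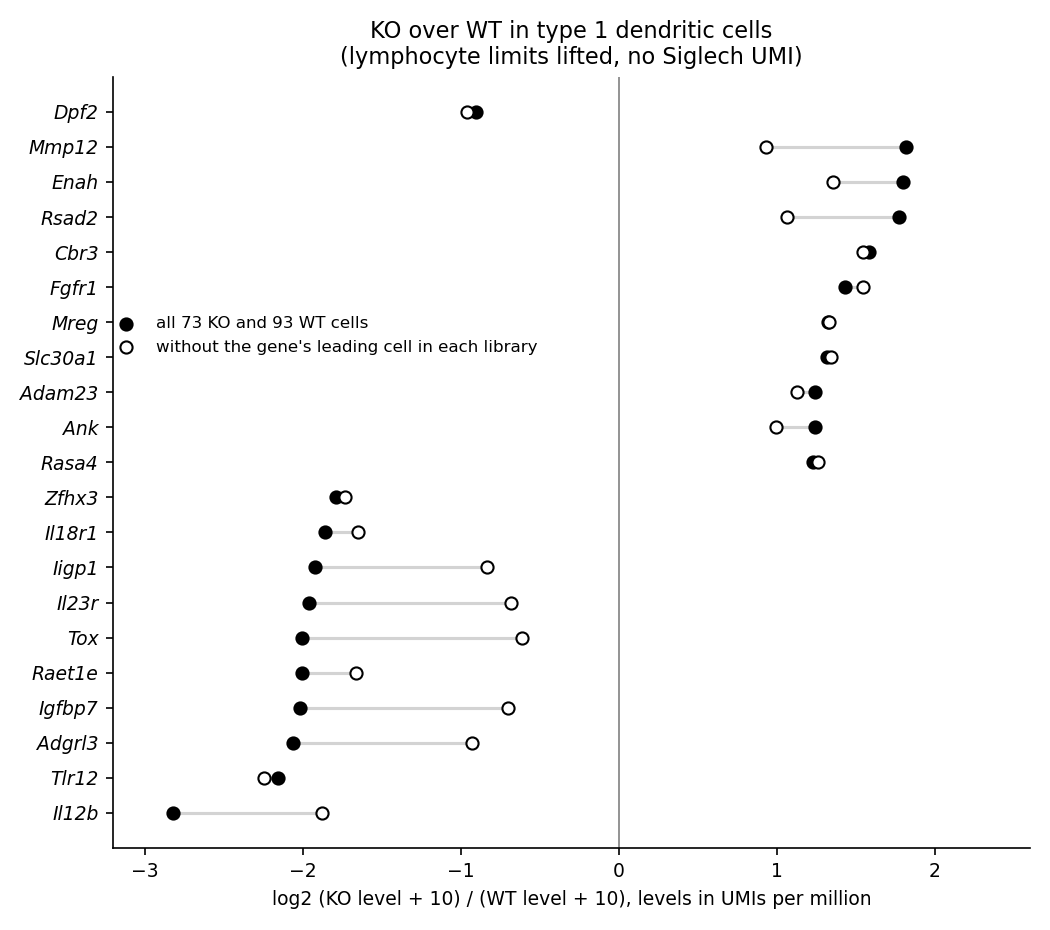
The horizontal axis gives the log2 ratio of KO over WT in the wider set without Siglech (73 KO and 93 WT cells) for Dpf2 and the 10 highest and 10 lowest genes, with all cells (filled) and without the gene's leading cell in each library (open). Tlr12, Zfhx3, Fgfr1, Cbr3 and Rasa4 barely move, whereas Tox, Il23r, Igfbp7 and Iigp1 move more than 1 log2 unit towards 0.

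Identity genes were split between genotypes, with a median near 0. Of 27 genes of type 1 identity receptors and adhesion, 21 were eligible in the wider set: 12 were higher and 9 lower in KO, 1 of them at least 2-fold, with a median log2 ratio of 0.06. Cadm1 had 1611 CPM in KO and 859 in WT, a ratio of 1.88 (1.75 to 2.01). It was found in 62 of 73 KO and 69 of 93 WT cells, with at most 138 and 98 UMIs in 1 cell. Ly75, the endocytic receptor DEC-205, went the other way with 150 in KO and 327 in WT (0.457, 0.387 to 0.538). The 57 cells gave other values. As defined Cadm1 was at 678 in KO and 956 in WT, and Ly75 at 320 in KO and 215 in WT, so both directions turned. Wdfy4 was at 830 in KO and 661 in WT (1.26, 1.15 to 1.37) and Naaa at 750 and 623 (1.20, 1.10 to 1.32).

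The transcription factors of the lineage lay within 2-fold. Of 15 eligible, 7 were higher and 8 lower in KO, none of them 2-fold, with a median of −0.04. Irf8 had 390 CPM in KO and 503 in WT (0.775, 0.693 to 0.866), and Batf3 41.1 and 63.3 (0.650, 0.460 to 0.910). Zbtb46, a factor of all conventional dendritic cells, had 145 in KO and 101 in WT (1.43, 1.15 to 1.77), and Zfp366, known as DC-SCRIPT, 319 and 201 (1.59, 1.37 to 1.84). Of the growth factor receptor genes, 3 were higher and 4 lower. Flt3, the receptor of the main dendritic cell growth factor, had 132 in KO and 112 in WT (1.18, 0.951 to 1.46), an interval that includes no difference.

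Genes of cross-presentation were mostly somewhat lower in KO. Of 28 eligible, 9 were higher and 19 lower, none of them 2-fold, with a median of −0.19. Over all genes 3021 were higher and 3144 lower, with a median of −0.01. B2m, the light chain of MHC class I, had 707 CPM in KO and 944 in WT (0.748, 0.689 to 0.812). The heavy chains H2-K1 (0.761, 0.707 to 0.818) and H2-D1 (0.667, 0.592 to 0.751) were lower too, and as near copies of each other they may share reads. Of the loading complex, Pdia3 was at 0.697 (0.637 to 0.762) and Calr at 0.760 (0.699 to 0.827). Tap1, the peptide transporter, was at 0.806 (0.675 to 0.962). Lgmn, a lysosomal endoprotease, was higher, with 195 in KO and 112 in WT (1.74, 1.43 to 2.12). In the 57 cells B2m had 1037 in KO and 928 in WT and the list's median was 0.08, so the direction of the list hung on the cells counted.

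MHC class II genes were near even, with 7 higher and 6 lower of 13 and a median of 0.01. Cd74, the invariant chain, had 5186 CPM in KO and 6692 in WT (0.775, 0.752 to 0.799), and H2-Aa 3486 and 3408 (1.02, 0.983 to 1.06). Of 12 eligible receptors for dead cells and microbes, 6 were higher and 6 lower, with Tlr12 alone past 2-fold. Havcr2, known as TIM-3, had 551 in KO and 367 in WT (1.5, 1.35 to 1.68), and Tlr3 56.0 and 73.9 (0.757, 0.560 to 1.02).

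Most genes of the interferon gamma response were lower in KO in the wider set, a count that was not tested. Of 16 eligible, 2 were higher and 14 lower, with a median of −0.42, where 3021 of all genes were higher and 3144 lower, with a median of −0.01. At least 2-fold lower were 3, Iigp1, Cxcl9 and Irgm1, where 1.3% of all genes were, and Iigp1 had 39 of its 54 WT UMIs in 1 cell. Cxcl9 had 149 CPM in KO and 370 in WT (0.402, 0.341 to 0.472), found in 41 of 73 KO and 53 of 93 WT cells. Cxcl10 had 106 and 197 (0.539, 0.440 to 0.659), Irgm1, a GTPase, 11.3 and 38.0 (0.299, 0.160 to 0.527), and the regulator Irf1 145 and 228 (0.636, 0.532 to 0.758). Cd274, the checkpoint ligand PD-L1, had 177 in KO and 346 in WT (0.511, 0.437 to 0.595). Thinned to 5000 UMIs, it was found in 47.9% of KO and 67.4% of WT cells, below the 87.5% of KO and 91.3% of WT plasma cells. Such shares cannot tell free RNA from expression, and the part of free RNA was not tested. Socs1, which curbs interferon signals, was at 0.463 (0.311 to 0.678). In the 57 cells 7 of 9 eligible genes were lower, with a median of −0.29, but without the cells holding Siglech 5 were higher and 4 lower, with a median of 0.02. T cells and NK cells are the usual source of interferon gamma, and T cell markers, all 10 detected in each library, summed to 57.4 CPM in KO and 291 in WT in the wider set. Markers of NK and innate lymphoid cells, 8 and 7 of 10 detected, summed to 203 in KO and 279 in WT. Their part in the result was not tested.

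The type I interferon list leaned the other way. Of 13 eligible in the wider set, 9 were higher and 4 lower, with a median of 0.16, against −0.01 over all genes. Those at least 2-fold higher were 2, Oasl1 and Rsad2, where 0.665% of all genes were, and the share of cells with Rsad2 was at or near that of plasma cells, as given above. Oasl1 had 239 CPM in KO and 109 in WT (2.19, 1.81 to 2.65), and 0.94 on the log2 scale without the leading cells, against 1.06 with them. Thinned to 5000 UMIs, it was found in 53.5% of KO and 37.1% of WT cells, against 31.9% of KO and 21.25% of WT plasma cells. Type 2 cells with the limits lifted held Oasl1 at 626 CPM in KO and 246 in WT. Its higher values in KO were thus not particular to type 1 cells. Ifi27l2a had 90.7 in KO and 42.6 in WT (2.13, 1.57 to 2.92), which is 0.94 on the log2 scale with 10 CPM added. Among the 57 cells 4 of 6 eligible genes were higher, with a median of 1.49, and Oasl1 had 47 of its 67 KO UMIs in 1 cell.

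Chemokines and maturation genes split. Of 17 eligible cytokine and chemokine genes, 6 were higher and 11 lower, with a median of −0.13. Ccl17, which draws Ccr4-bearing T cells, had 88 UMIs in 20 of 73 KO cells and 4 in 3 of 93 WT cells, a ratio of 23.4 (8.83 to 87.8). Thinned to 5000 UMIs, 9 of 71 KO and 0 of 89 WT cells held it, against 3.67% of KO and 0.306% of WT plasma cells. Its level was also higher in KO type 2 cells, at 282 CPM in KO and 35.4 in WT. Ccl22 had 39.7 in KO and 18.7 in WT (2.13, 1.33 to 3.48), and Cxcl16, which binds Cxcr6 on resident T cells, 189 and 102 (1.85, 1.51 to 2.27).

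Of 19 eligible genes of costimulation and maturation, 9 were higher and 10 lower, with a median of −0.01. Marcksl1, which binds actin, had 254 CPM in KO and 113 in WT (2.25, 1.87 to 2.72). Cd86, a costimulatory ligand, had 808 in KO and 589 in WT (1.37, 1.25 to 1.5), while Cd80 had 196 and 178 (1.10, 0.926 to 1.31). Apol7c, an apolipoprotein L relative induced in maturing type 1 cells, had 8 UMIs in 3 KO cells and 173 in 25 WT cells, a ratio of 0.0492 (0.0209 to 0.0991) and −3.17 on the log2 scale without the leading cells. Thinned to 5000 UMIs, 1 of 71 KO and 19 of 89 WT cells held it, against 0.367% of KO and 0.382% of WT plasma cells. It has close relatives in the genome, so reads could be split among them. In the 57 cells it had 1 UMI in KO and 82 in 11 WT cells. It stands on the marker list of mature migratory dendritic cells, whose 12 markers summed to 257 in KO and 228 in WT, with 10 detected in each library.

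Stress, survival and cell cycle lists had medians within 2-fold in the wider set, where 3021 of all genes were higher and 3144 lower, with a median of −0.01. Heat shock genes were lower in KO for 10 of 15, with a median of −0.29. Among them the chaperone of the endoplasmic reticulum Hspa5 had 1454 CPM in KO and 2142 in WT (0.679, 0.642 to 0.718), and Hspa8 730 and 1168 (0.625, 0.578 to 0.675). Hspa1b, induced by heat and by tissue digestion, was higher with 464 in KO and 295 in WT (1.57, 1.39 to 1.78). Immediate early genes, which digestion also induces, were higher for 18 of 27 with a median of 0.27, although Jun had 105 in KO and 228 in WT (0.459, 0.376 to 0.558). NF-kB genes were higher for 13 of 18 with a median of 0.09, with Rel at 1923 in KO and 1253 in WT (1.53, 1.45 to 1.63).

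Genes that p53 switches on after irradiation were split, with 7 higher and 8 lower of 15 and a median of −0.02. Trp53inp1 had the largest ratio and was the 1 gene at least 2-fold lower, where 1.3% of all genes were. None was at least 2-fold higher. Cdkn1a, which halts the cell cycle, had 127 CPM in KO and 117 in WT (1.08, 0.874 to 1.34), and Mdm2, which degrades p53, 540 and 426 (1.27, 1.14 to 1.41). Of the BCL2 family 8 of 11 were higher, with a median of 0.26. Bcl2a1b had 276 in KO and 127 in WT (2.18, 1.83 to 2.61), Bcl2a1a 120 and 55.3 (2.17, 1.66 to 2.85) and Bcl2a1d 298 and 184 (1.62, 1.39 to 1.90). These 3 survival genes are near-identical copies, so their separate counts are uncertain. S and G2/M genes were higher for 11 of 21 with a median of 0.01, and Mki67 had 73 UMIs in each library, whereas in the 57 cells 4 of 4 eligible genes were lower. Subunits of the BAF complex were even, with 10 higher and 11 lower of 21, Dpf2 among the lower, and a median of −0.04. Lysosome genes were higher for 16 of 24 with a median of 0.07, gut retinoid and integrin genes for 8 of 13 with 0.04, and glycolysis genes for 9 of 18 with 0.01.

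**Figure D5:**
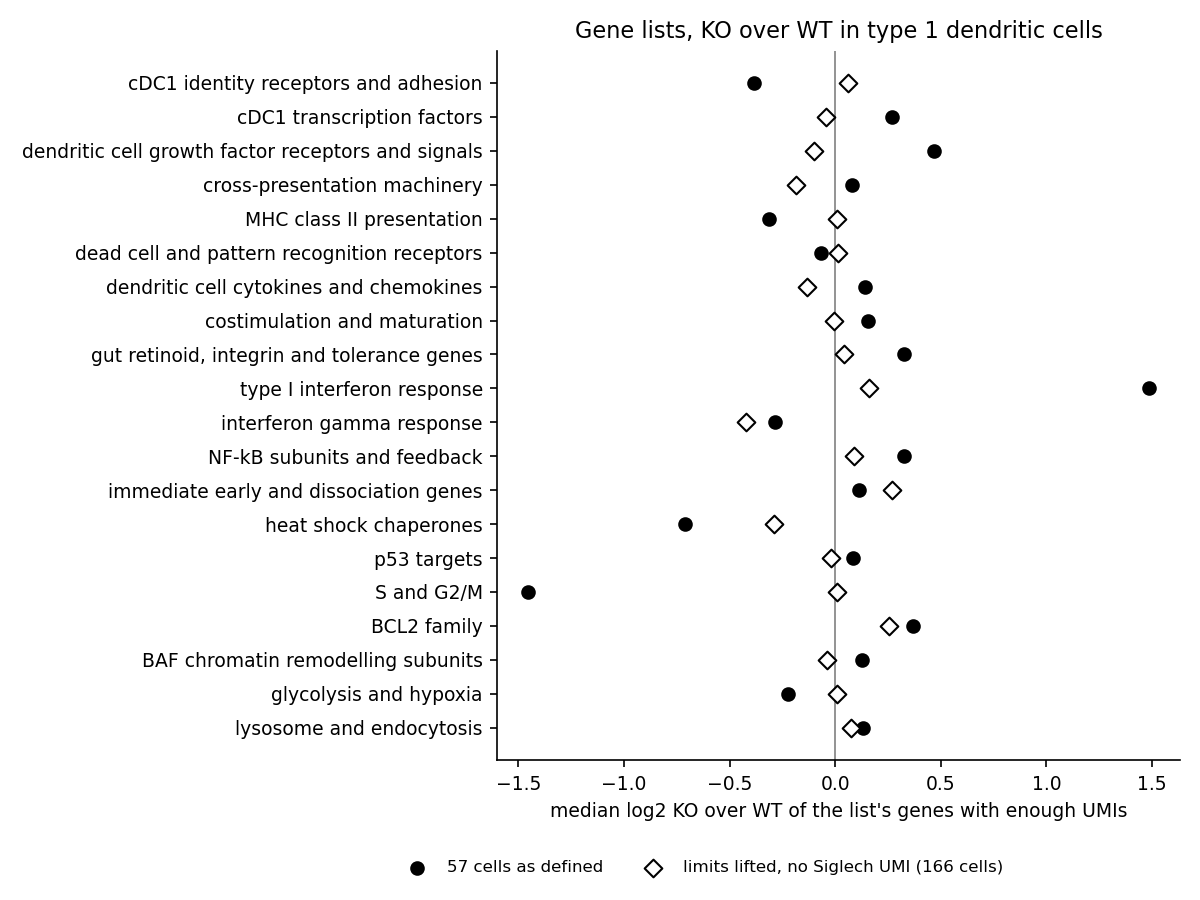
The horizontal axis gives the median log2 ratio of KO over WT over each list's genes with enough UMIs, for the 57 cells as defined (filled) and the wider set without Siglech (open diamonds). The interferon gamma and heat shock lists lie below 0 in both, and the type I interferon and S and G2/M medians of the 57 cells, at 1.49 and −1.45, lie near 0 in the wider set.

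Transcripts of other cell types moved with genotype in these cells, and their part in the results was not tested. Plasma cell markers summed to 4525 CPM in KO and 17800 in WT in the wider set without Siglech, with 9 and 10 of 10 detected. Single cells ran from 30.7 to 125 per 10000 in KO and from 55.6 to 1699 in WT. B cell markers, all 10 detected in each library, summed to 361 in KO and 138 in WT. Stromal markers summed to 73.7 in KO and 357 in WT, with Dcn, the matrix gene decorin, at 0 in KO and 7 and 9 of 10 detected. Macrophage markers, 11 and 10 of 12 detected, summed to 111 in KO and 38.0 in WT, with Cd163 at 0 in both. Neutrophil markers, 8 and 6 of 10 detected, summed to 58.1 in KO and 18.0 in WT, with Ly6g at 0 in both. Type 2 markers, 15 and 17 of 18 detected, summed to 434 in KO and 413 in WT, with Cd209d at 0 in both. The 57 cells held plasma cell markers at 4927 in KO and 11950 in WT, with 6 and 9 of 10 detected, and type 2 markers at 772 and 597, with 11 and 15 of 18 detected. In them Pax5, Ebf1, Cd3e and Cd3d were at 0 in both libraries by the rule.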

How the data were processed

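The files deposited by the authors hold raw UMI counts for each gene in each barcode. The submitters' processing notes name Cell Ranger 7.0.0 and GRCm38. Neither the annotation release nor whether intronic reads were counted is given in the sources used here. Barcodes with at least 500 UMIs, 200 genes and at most 20% mitochondrial UMIs were kept. The KO library kept 8681 of 8794 and the WT library 10896 of 10958. No per-sample column was left unmapped (0).

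UMIs were summed over cells and scaled to 1000000 (python 3.11.15, numpy 2.4.6, pandas 2.3.3). Log2 ratios used 10 added to each level. Intervals are Clopper-Pearson for shares and conditional binomial for ratios (scipy 1.17.1). Ratios of shares are bounded by opposite ends of both intervals. Scrublet in scanpy 1.11.5 called 416 KO and 637 WT barcodes as doublets. They were kept, and left out as an alternative. Scripts were tested on simulated data. Figures were drawn with matplotlib 3.10.9. Gene positions came from GENCODE M21 (54723 of 54838 identifiers matched). No test compared the genotypes, since each has 1 library.

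The members and gene lists were chosen with earlier results of these data known. Named genes are Dpf2, the given markers, the 10 highest and 10 lowest of each ranking and, per list, up to 4 of the highest level or largest ratio, with a few more chosen after their values were seen. Left out of rankings are genes of the rules, antigen receptor segments, sex-linked, haemoglobin and mitochondrial genes, unnamed models and other types' markers. Alternatives are given in the closing section.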

Additional observations from a re-analysis of the deposited data

Results flagged for a closer look

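3 genes lay at least 2-fold apart between genotypes in opposite directions in type 1 and type 2 cells, both with the lymphocyte limits lifted. The difference between the cell types was not tested. Il12b had a log2 ratio of −2.82 in type 1 cells (4.96 UMIs per 1000000 in KO and 95.9 in WT) and 3.01 in type 2 cells (127 in KO and 6.95 in WT). In type 1 cells 1 WT cell held 85 of the 144 WT UMIs. Type 2 cells held 77 UMIs of Il12b in KO and 11 in WT with the limits lifted. As defined they held only 7 in KO and 7 in WT, at a log2 ratio of 1.14. Mitf, a factor of melanocytes and myeloid cells, had −1.32 in type 1 cells (13.5 in KO and 48.6 in WT) and 1.28 in type 2 cells (232 in KO and 89.7 in WT). Cped1 had −1.14 in type 1 cells (8.50 in KO and 30.6 in WT) and 1.09 in type 2 cells (98.8 in KO and 41.1 in WT).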

How the results depend on the processing

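The ratio of shares, 0.335 as defined, was 0.975 in the wider set, 0.985 without Siglech and 1.03 also without doublets, the last on the other side of 1. It kept its side under the stricter marker minimum, with both Xcr1 and Clec9a, without doublets and at 10% mitochondrial UMIs. Genes at least 2-fold higher in KO numbered 150, against 41 in the wider set, 41 without Siglech, 48 also without doublets, 77 with 50 added, 866 without a filter, 65 with a minimum of 100 UMIs and 465 after thinning to 1000 UMIs. Genes lower in KO numbered 202, against 84, 80, 54, 79, 1262, 76 and 775 in the same order. Genes higher in type 1 than type 2 cells numbered 133, against 56 with 50 added, 204 in the wider set and 209 without Siglech and doublets. Genes lower numbered 188, against 78 with 50 added, 294 in the wider set without Siglech and 302 also without doublets. The cause of these moves was not tested, apart from fewer genes or UMIs counted under the stricter filter and thinning. Of the genes named in KO cells, some reversed: with at least 3 UMIs of Xcr1 and Clec9a, Lair1 (−0.94), Prkca (−0.39), Mctp2 (−1.45) and Rell1 (−1.68); with both genes required, Mctp2 (−0.16) and Rell1 (−0.93); without Siglech, Mctp2 (−0.34) and Rell1 (−1.41); in the wider set, Prkca (−0.37), Tmem267 (−0.22) and Lrp8 (−0.21); there without Siglech, Prkca (−1.07), Mctp2 (−1.40) and Tmem267 (−0.26); also without doublets, Prkca (−0.95), Mctp2 (−0.93) and Tmem267 (−0.35); and after thinning, Kcnq1ot1 (0.28). The wider set, the limit on Siglech, the removal of its doublets and of leading cells were chosen after seeing the data. No value could be had without dividing cells (4 KO and 5 WT left), in cells with Xist alone (3 and 9) or with Y-linked genes alone (3 and 18), as fewer than 5 KO cells remained. No paired analysis was possible because each genotype has 1 library and the labels carry no shared replicate number. The 12 KO cells, with 128272 UMIs, limit what the rule as defined can show for genes of few UMIs.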
